A study of Mus musculus with 18 samples.

Results

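The genes described here encode the motor subunits of axonemal dyneins and the proteins that dock and assemble them. They were the gene symbols in the 18 deposited tables that matched a fixed list of names for axonemal dynein heavy, intermediate and light chains, docking and attachment factors, and cytoplasmic assembly factors, including those with very low levels. Genes of the dynein arms that carry other kinds of names were not members. The rule found 35 genes of the 30172 in the tables. By role they were 5 outer arm heavy chains, 9 inner arm heavy chains, 1 heavy chain of unsettled place (Dnah14), 6 intermediate and light chains, 5 docking and attachment factors and 9 assembly factors. Of these, 34 were tested, and Dnaaf6, with 1 fragment in 1 library (F1-HHcy Pd21 replicate 2), was not.

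The libraries were made from whole ovaries of wild-type female C57BL/6J offspring (F1). F1-HHcy dams were given chow with 3% methionine from 4 weeks before mating (per the labels) through gestation and lactation, and F1-Control dams were given normal chow. The labels and the study's methods differ on how long the dams were fed before mating. Weaning was at postnatal day 21. Ovaries were taken on postnatal day (Pd) 3, 7 and 21, with 3 libraries per diet and day, and the sources do not say whether a library came from 1 ovary, 1 pup or several, so the p-values measure the spread between these libraries. Pd3 and Pd7 formed the labelled batch 1 and Pd21 alone batch 2, so that age and batch cannot be told apart for Pd21, whereas both diets of a day lay within 1 batch. Between 33630505 and 39399207 fragments per library fell on genes. Levels are given as FPKM, fragments scaled to the length of the gene and the size of the library, and differences as log2(FPKM + 1) of F1-HHcy minus F1-Control with a standard error (SE), a scale that understates the change of genes far below 1 FPKM. The oocyte markers Zp2, Zp3 and Gdf9 and the granulosa cell markers Foxl2 and Amhr2 were at 33.5 FPKM or more in all 18 libraries.

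Axonemal dyneins are the ATP-driven motors that bend motile cilia and sperm flagella. Outer and inner dynein arms sit in rows on the doublet microtubules, and each arm is built from heavy chains that carry the motor, and from intermediate and light chains that anchor and regulate them. The arms are preassembled in the cytoplasm by a set of assembly factors and then docked onto the doublets. In the female reproductive tract motile cilia are known from the multiciliated cells of the oviduct epithelium, which move the oocyte, while oocytes and granulosa cells carry none. Cytoplasmic dynein, a different motor of all cells, has heavy chains encoded by other genes.

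**Figure D1:**
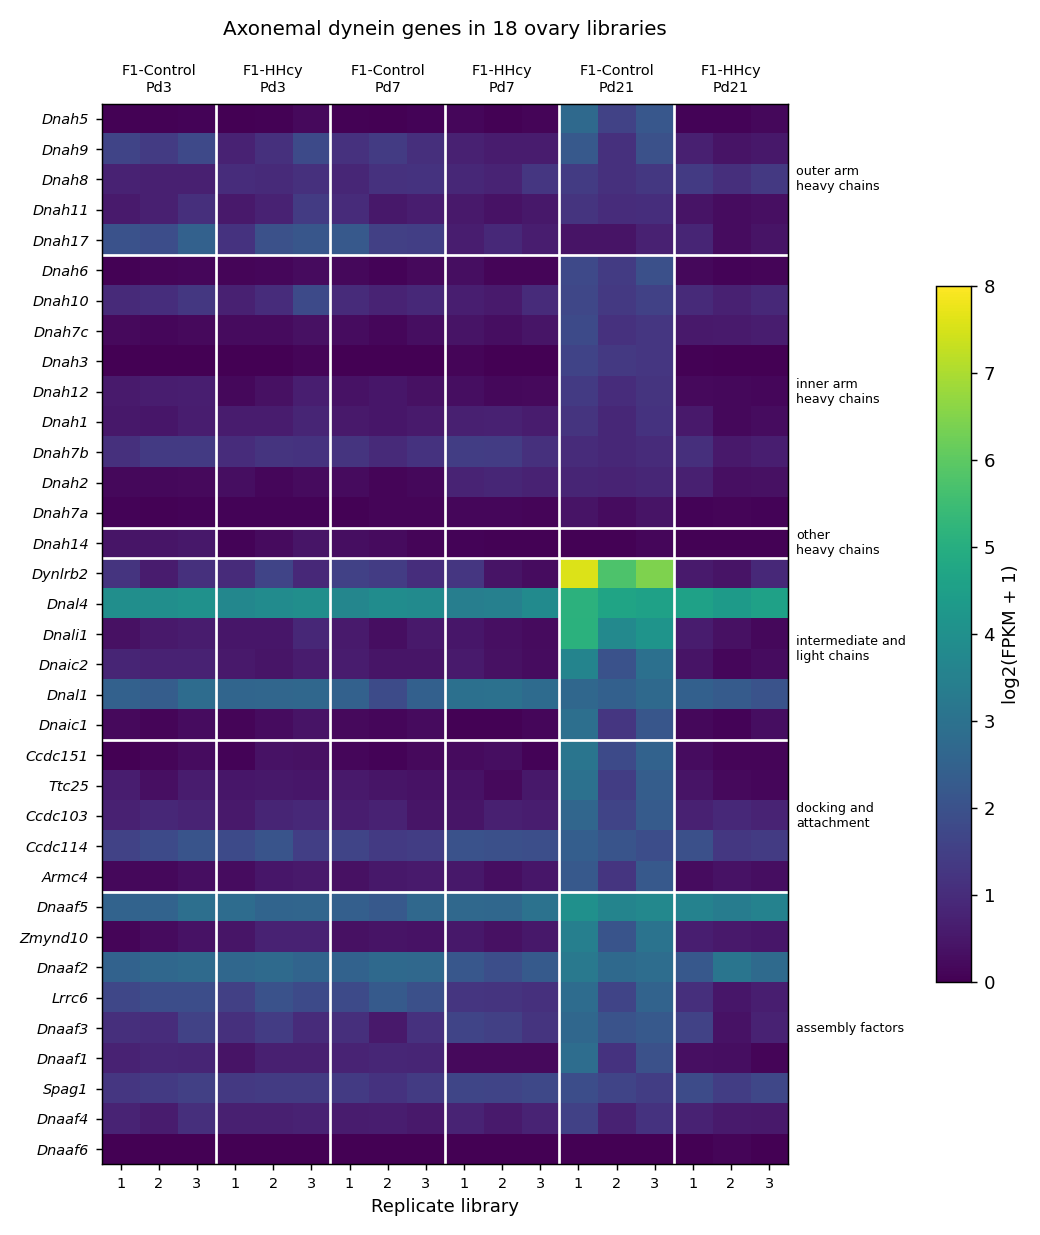
Level of the 35 genes, as log2(FPKM + 1), in each of the 18 libraries (columns, by diet and day) with genes in rows by role and, within a role, by their mean in F1-Control Pd21. The 3 F1-Control Pd21 libraries carry the high values of most rows, and Dnal4, Dnaaf5, Dnal1 and Dnaaf2 are present in every library.

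The regulatory sequence upstream of some of these genes is shown first. Promoters from RefSeq (GRCm38.p6, the build in the labels) were found for 29 of the 35 genes, and the 250 bases before the start site were searched on both strands for the RFX X-box, which was written as GTNNCC and GNAAC with 3 free bases between them and is the site of the RFX factors that act on ciliary genes, and for the forkhead site TGTTTAC, bound by Foxj1 and many other factors. An X-box match was present upstream of 6 of the 29 genes, against 1.8% of the 32851 promoters in the table, and a forkhead match upstream of 1 of 29 (Dnah17), against 3.17%. The X-box matches of the 5 tested genes are printed below 5′ to 3′ on the gene's strand with up to 15 bases on each side and the matched bases in capitals. They came from Ccdc114 (chr7:45924185-45924214, + strand), Ccdc151 (chr9:22002640-22002683, - strand), Dnaaf2 (chr12:69198430-69198461, - strand), Dnaaf5 (chr5:139150202-139150234, + strand) and Dnah17 (chr11:118129350-118129393, - strand).
Ccdc114: ccttattggccccttGTCTCCCCAGTAACc
Ccdc151: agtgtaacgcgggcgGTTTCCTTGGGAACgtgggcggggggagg
Dnaaf2: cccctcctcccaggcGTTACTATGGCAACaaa
Dnaaf5: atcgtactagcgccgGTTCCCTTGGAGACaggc
Dnah17: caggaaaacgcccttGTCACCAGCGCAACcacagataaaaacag
The matches lay within 34 bases of the start in Ccdc114, Ccdc151, Dnaaf2 and Dnaaf5. Ccdc151 was among the genes that fell in F1-HHcy ovaries at Pd21, whereas Ccdc114, Dnaaf2, Dnaaf5 and Dnah17 did not pass the test there. Of the 8 genes called at Pd21 that have a promoter in the table, 1 held an X-box match. The count depends on the 3 free bases. With 0 to 3 free bases, a pattern added after the sequences were seen, a match lay upstream of 10 of the 29 genes (Dnah9, Dnaic1, Dnaic2 and Dynlrb2 in addition) and of 3 of the 8 called, against 4.13% of all promoters.

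The promoters of Dynlrb2 and Dnali1 are shown because these genes had the largest differences between the diets on the log2(FPKM + 1) scale. Neither held a match to the 2 motifs as first written, which says only that these letters are not in this window. With 2 free bases Dynlrb2 held an X-box match, 39 to 51 bases before the start. They lie at chr8:116504765-116505014 on the + strand and at chr4:125065658-125065907 on the - strand, and are written in lower case with this match in capitals.
Dynlrb2: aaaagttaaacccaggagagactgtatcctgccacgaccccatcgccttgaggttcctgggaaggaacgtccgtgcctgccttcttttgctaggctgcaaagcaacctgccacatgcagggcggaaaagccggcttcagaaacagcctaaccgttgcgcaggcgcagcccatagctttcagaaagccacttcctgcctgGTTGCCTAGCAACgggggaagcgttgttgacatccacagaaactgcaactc
Dnali1: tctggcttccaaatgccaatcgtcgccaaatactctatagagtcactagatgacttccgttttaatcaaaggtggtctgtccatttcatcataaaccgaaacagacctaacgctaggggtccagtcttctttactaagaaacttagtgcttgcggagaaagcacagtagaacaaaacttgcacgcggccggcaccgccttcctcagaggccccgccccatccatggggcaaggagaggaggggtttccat

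At Pd21 the levels of most axonemal dynein genes were lower in the F1-HHcy ovaries, and 9 of the 34 tested passed the test in the reported fit and 0 in the fit as first planned. By limma with Benjamini-Hochberg adjustment over 27294 genes, the members that fell in the reported fit were Dynlrb2, Dnali1, Dnaic2, Dnah5, Dnah3, Dnah6, Dnah12, Ccdc151 and Zmynd10, and 0 rose, against 0.59% of all genes that fell and 0% that rose. No member reached an unadjusted p under 0.05 in the higher direction, and limma-voom called 0 higher. The difference was negative for 33 of 34 members, with a median of -0.93, beside -0.0052 over all genes. In 26 members every F1-HHcy library lay below every F1-Control library (8.61% of all genes), and in 0 members above (2.22%). By the looser criterion of the study's plots, an unadjusted p under 0.05 with a log2 difference over 0.58, 22 members were lower (3.19% of all genes) and 0 higher (0.0366%). Here it was applied to limma's p and to differences of log2(FPKM + 1), on which low genes meet the cut less easily. Dnah7a, 4.28 times lower with an unadjusted p of 0.00475 (limma), did not meet it.

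The calls at Pd21 depended on the test. With any 1 library left out, at least 31 of the 34 members had a negative difference. For the 26 members without overlap this sign was fixed in advance, so it is no separate support. The moderation step described in the processing was altered after simulations. With limma's moderation over all genes together, as first laid down, 0 of the 34 members passed at Pd21 (25 had an unadjusted p under 0.05 in the reported fit), and the smallest adjusted p was 0.0530, for Dynlrb2 and Dnah3. Limma-voom on the recovered fragments called 3 (Dnah3, Dnah6 and Dnah12, with 0.246% of all genes lower), and 1 model of all 18 libraries called 22 (3.22%). Without F1-Control replicate 1 the number was 3 (0.352% of all genes), without replicate 2 it was 17 (1.75%), and without F1-Control replicate 3 or any 1 F1-HHcy library it was 0, settings in which 0 of all 27294 genes were lower.

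**Figure D2:**
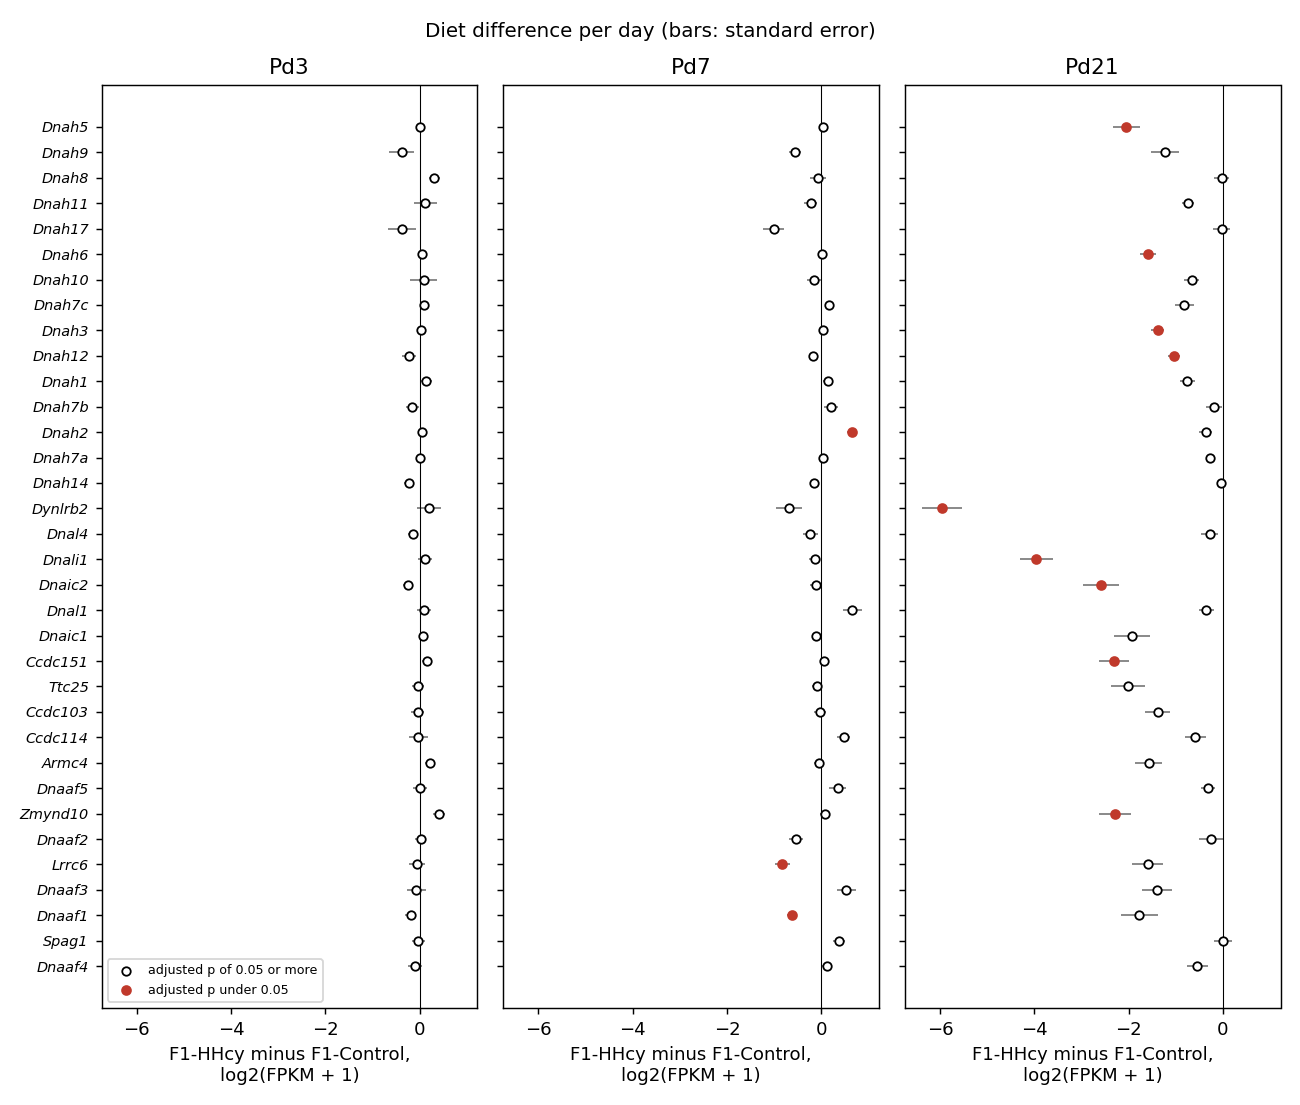
Difference of F1-HHcy minus F1-Control in log2(FPKM + 1) with its standard error for the 34 tested genes at Pd3, Pd7 and Pd21, with filled points for an adjusted p under 0.05 (limma). At Pd21 all points but Spag1 lie below 0 and 9 are filled, at Pd7 3 are filled, and at Pd3 none is.

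The intermediate and light chains held the largest differences on the log2(FPKM + 1) scale. Dynlrb2, a roadblock-type light chain of dynein (chromosome 8, 116505015 to 116515915), was the most abundant member in F1-Control at Pd21, with 189, 53.2 and 86.9 FPKM in the F1-Control libraries and 0.485, 0.353 and 0.887 FPKM in the F1-HHcy libraries. The groups did not overlap, and even the lowest F1-Control library was 60.0 times the highest F1-HHcy library. The mean of 110 ± 70.9 FPKM (SD, n = 3) was 191 times that of F1-HHcy, 0.575 ± 0.278, and the difference was -5.96 (SE 0.43, adjusted p = 0.0139, limma). Dnali1, the light intermediate chain of inner arms (chromosome 4, 125055339 to 125065657), had 33.6, 12.5 and 16.8 FPKM against 0.532, 0.274 and 0.134 FPKM. Its 20.9 ± 11.1 FPKM in F1-Control were 66.9 times the mean in F1-HHcy, with a difference of -3.96 (SE 0.34, adjusted p = 0.0154, limma).

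Both intermediate chains of the outer arm had low values in every F1-HHcy library. Dnaic2 had 11.3, 3.04 and 6.76 FPKM in F1-Control and 0.329, 0.112 and 0.192 in F1-HHcy, and fell by 2.59 (SE 0.38, adjusted p = 0.0473, limma). Dnaic1, its partner, had 6.53, 1.41 and 3.40 FPKM against 0.119, 0.0609 and 0.219, a difference of -1.93 that did not pass the adjustment (adjusted p = 0.120, limma). The light chains Dnal1 and Dnal4 did not pass the test. Dnal4, a light chain of the LC8-like type and among the most abundant members, had 34.1, 24.4 and 22.9 FPKM against 23.0, 19.6 and 23.0 FPKM, with overlapping groups and a difference of -0.28 (SE 0.18, adjusted p = 1, limma). Dnal1, a light chain of the outer arm motor, had 5.37, 4.49 and 5.65 FPKM against 4.53, 3.95 and 3.13 FPKM, again with overlap, and a difference of -0.35 (SE 0.17, adjusted p = 0.895, limma).

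Among the 9 inner arm heavy chains 3 passed the test at Pd21, all lower. Dnah3 had 2.04, 1.49 and 1.43 FPKM in F1-Control and 0.0243, 0.00756 and 0.00740 FPKM in F1-HHcy, the latter resting on 20 fragments in all 3 libraries, and fell by 1.38 (SE 0.14, adjusted p = 0.0194, limma). By the ratio of the group means, 126.5, it stood above Dnali1. Dnah6 had 2.39, 1.65 and 2.85 FPKM against 0.123, 0.0621 and 0.0792, and fell by 1.58 (SE 0.17, adjusted p = 0.0217, limma). Dnah12 had 1.57, 1.02 and 1.31 FPKM against 0.144, 0.116 and 0.0984, and fell by 1.03 (SE 0.13, adjusted p = 0.0344, limma). In these 3 genes F1-HHcy lay below every F1-Control library by a factor of at least 7.09.

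The other inner arm heavy chains had smaller differences, and none passed the adjustment. Dnah10 had 2.24, 1.51 and 1.95 FPKM against 0.943, 0.662 and 0.888 FPKM (difference -0.66, adjusted p = 0.212, limma), and Dnah1 had 1.28, 0.842 and 1.25 against 0.456, 0.116 and 0.206 (difference -0.76, adjusted p = 0.136, limma). Their groups were separate. Dnah7a, Dnah7b and Dnah7c are paralogues on chromosome 1. Reads may be split between them, and their single values are uncertain. Dnah7c had 2.48, 1.21 and 1.38 FPKM against 0.448, 0.481 and 0.558, whereas Dnah7b, with 0.987, 0.870 and 0.964 FPKM against 1.11, 0.459 and 0.581, overlapped between the diets. The differences were -0.82 for Dnah7c, -0.27 for Dnah7a and -0.19 for Dnah7b, with adjusted p from 0.207 to 1 (limma). Dnah2 had 0.762, 0.734 and 0.80 FPKM against 0.613, 0.263 and 0.271 FPKM (difference -0.36, adjusted p = 0.625, limma).

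Of the 5 outer arm heavy chains only Dnah5 passed the test at Pd21. Dnah5, the outer arm motor whose loss causes primary ciliary dyskinesia, had 5.58, 1.99 and 3.56 FPKM in F1-Control and 0.0595, 0.0639 and 0.127 FPKM in F1-HHcy, and fell by 2.05 (SE 0.28, adjusted p = 0.0392, limma). Dnah9, the outer arm heavy chain of the distal part of respiratory cilia, had 3.67, 1.14 and 2.95 FPKM against 0.620, 0.332 and 0.439 FPKM (difference -1.22, adjusted p = 0.206, limma). Dnah11, its proximal counterpart in respiratory cilia, had 1.32, 1.02 and 1.07 FPKM against 0.351, 0.205 and 0.264 FPKM (difference -0.74, adjusted p = 0.0717, limma). The groups of both were separate. Dnah8 and Dnah17, known as the outer arm heavy chains of sperm flagella, had differences near 0. Dnah8 had 1.63, 1.18 and 1.48 FPKM against 1.57, 1.12 and 1.5 FPKM, and Dnah17 0.343, 0.344 and 0.677 against 0.785, 0.203 and 0.343, with differences of -0.02 each (SE 0.16 and 0.18), whose sign turned in some settings. Dnah14 was at most 0.108 FPKM in every Pd21 library.

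**Figure D3:**
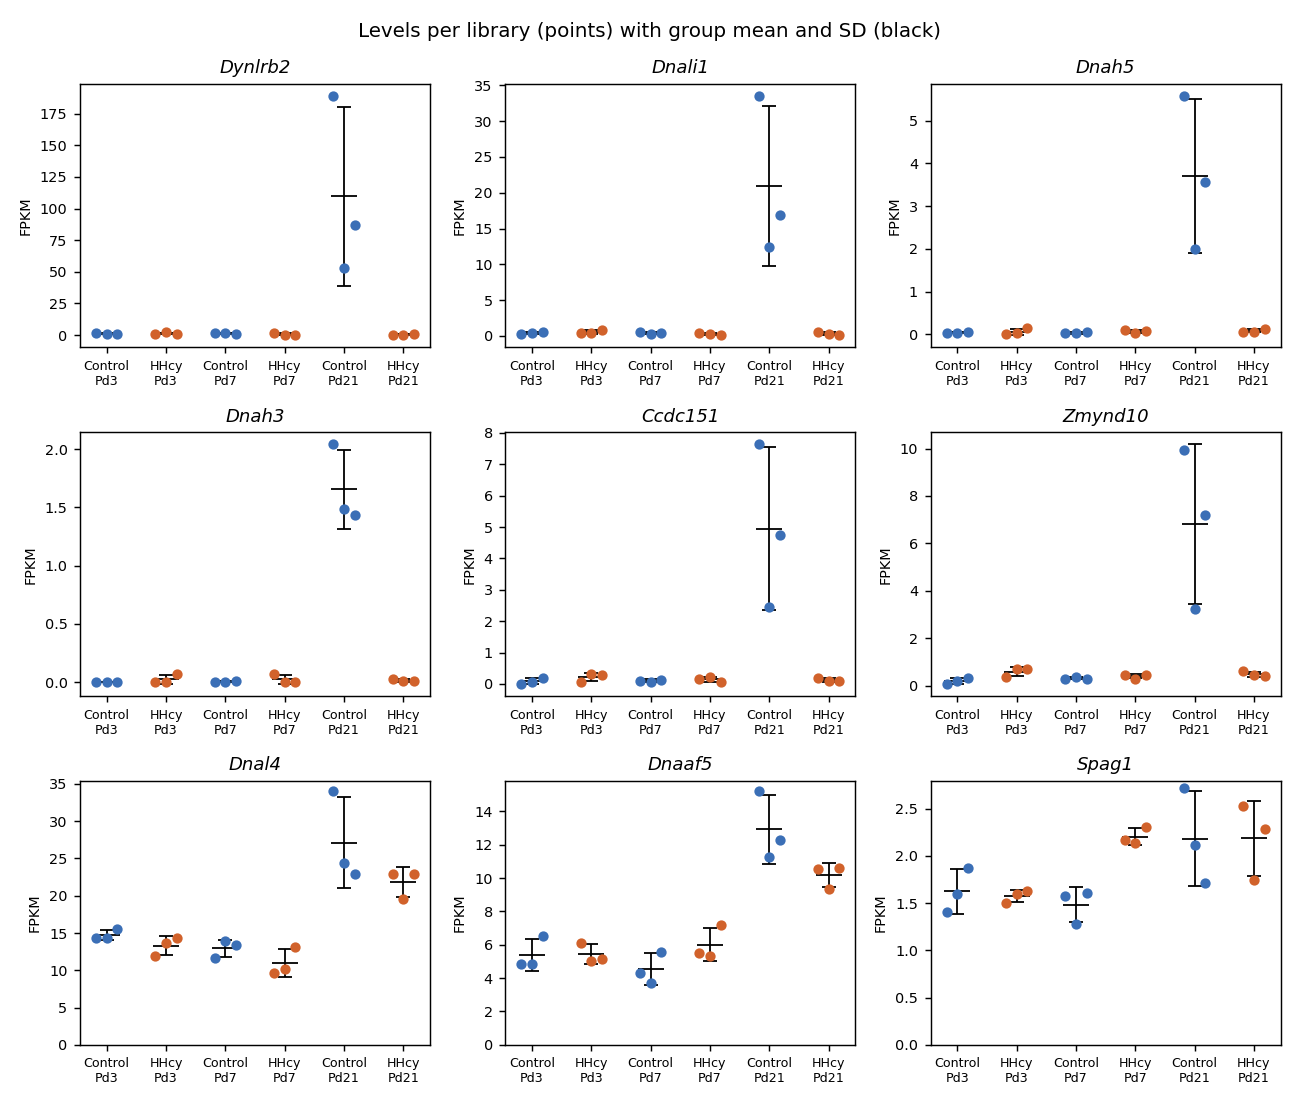
FPKM of 9 genes in each library (blue F1-Control, orange F1-HHcy) with the group mean and SD (n = 3) in black, on linear axes that differ between panels. In the 6 genes of the upper rows the 3 F1-Control Pd21 libraries lie above the 15 others. In Dnaaf5 they do so by a narrow margin (lowest 11.3 FPKM, against 10.6 as the highest of the others). Dnal4, Dnaaf5 and Spag1 are present in every group.

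Docking and attachment factors hold the outer arm to the doublet. At Pd21 1 of 5 passed the test. Ccdc151, a subunit of the outer arm docking complex, had 7.63, 2.45 and 4.75 FPKM in F1-Control against 0.192, 0.0898 and 0.0878 FPKM in F1-HHcy, and fell by 2.31 (SE 0.32, adjusted p = 0.0408, limma). Ttc25 and Armc4 also serve outer arm docking. Ttc25 had 6.88, 1.76 and 4.13 FPKM against 0.329, 0.150 and 0.114, and Armc4 3.70, 1.34 and 3.66 against 0.192, 0.307 and 0.241, both with an adjusted p of 0.0897 (limma) and differences of -2.01 and -1.58. Ccdc103, which binds dynein to the axoneme, had 5.30, 2.13 and 3.87 FPKM against 0.667, 0.902 and 0.719 FPKM (difference -1.38, adjusted p = 0.108, limma). The groups of these 4 were separate. Ccdc114, also a docking complex subunit, was the exception, with 4.22, 3.22 and 2.72 FPKM against 2.83, 1.45 and 1.61 FPKM, overlapping groups and a difference of -0.58 (adjusted p = 0.660, limma).

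Among the assembly factors 1 of 8 tested passed at Pd21. Zmynd10, a co-chaperone that stabilises dynein heavy chains, had 9.95, 3.24 and 7.21 FPKM in F1-Control against 0.595, 0.446 and 0.396 in F1-HHcy, and fell by 2.30 (SE 0.34, adjusted p = 0.0473, limma). Dnaaf1, a leucine-rich repeat assembly factor, had 6.24, 1.26 and 2.96 FPKM against 0.246, 0.221 and 0.0720 (difference -1.77, adjusted p = 0.158, limma), and Lrrc6, a partner of Zmynd10, 6.08, 2.09 and 4.88 against 1.13, 0.393 and 0.576 (difference -1.59, adjusted p = 0.134, limma). Dnaaf3 had 5.32, 3.12 and 3.71 FPKM against 2.00, 0.322 and 0.708, and Dnaaf4, like it a cytoplasmic preassembly factor, 1.95, 0.719 and 1.27 against 0.713, 0.484 and 0.473, both without overlap and with adjusted p of 0.186 and 0.680 (limma).

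The most abundant assembly factors did not pass the test at Pd21. Dnaaf5 had 15.2, 11.3 and 12.3 FPKM against 10.6, 9.33 and 10.6 FPKM (difference -0.31, SE 0.15, adjusted p = 0.894, limma), and Dnaaf2 8.37, 5.66 and 6.18 against 3.58, 7.70 and 5.73 (difference -0.25, SE 0.26, adjusted p = 1, limma). The groups of Dnaaf5 were separate, and those of Dnaaf2 overlapped. Spag1, a tetratricopeptide co-chaperone, had 2.72, 2.12 and 1.71 FPKM against 2.52, 1.74 and 2.28 FPKM, and its difference of 0.0046 (SE 0.18) was the only positive value among the 34 members and turned sign in some settings. Of the exonic bases of Dnaaf2, 38.7% are shared with another gene model on the same strand, which limits its value.

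The pattern across the 18 libraries was largely one of the F1-Control Pd21 group standing apart. In 19 of the 35 members all 3 F1-Control Pd21 libraries lay above each of the 15 other libraries, as in 3.35% of all genes tested. At Pd3 and Pd7 several of these genes were low in both diets, as Dynlrb2 ranged from 0.210 to 2.11 FPKM and Dnah5 from 0.00174 to 0.143 FPKM over those 12 libraries. The F1-HHcy Pd21 libraries lay within these ranges for both genes. Summed over the 35 members, the level was 391, 155 and 224 FPKM in the F1-Control Pd21 libraries, between 52.2 and 61.9 in F1-HHcy Pd21 and between 43.1 and 64.1 at Pd3 and Pd7. Dnah17 and Dnah14 had another order. Dnah17 had 3.06, 2.69 and 4.62 FPKM in F1-Control at Pd3 and 0.343, 0.344 and 0.677 at Pd21, and Dnah14 0.382, 0.377 and 0.429 against 0.0422, 0.0414 and 0.108, a contrast in which age and batch cannot be told apart and which was not tested. In bulk tissue, fewer cells of a type and less RNA per cell cannot be told apart.

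The F1-Control Pd21 libraries also differed among themselves in a shared order. Replicate 1 had the highest and replicate 2 the lowest level in 22 of the 26 members without overlap, and in 7 of the 9 called. Replicate 1 stood above replicate 2 by a factor of 1.37 to 3.72 in the 9 called members, with a median of 2.81.

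Of the markers of the ciliated and secretory epithelium of the oviduct, 1 of each list passed the test at Pd21, and 0 by limma-voom or with moderation over all genes together. Foxj1, the master regulator of motile ciliogenesis, had 99.1, 20.4 and 49.6 FPKM in F1-Control and between 0.248 and 0.441 FPKM in F1-HHcy, and fell by 5.14 (SE 0.50, adjusted p = 0.0194, limma). It was 1 of 10 multiciliated cell regulators that passed, 9 of the 10 had no overlap in the lower direction, and their summed level was 101 to 218 FPKM against 80.2 to 106, of which Ccno alone made 69.9 to 98.9 FPKM. Ccno was the exception in direction, with a mean of 81.3 FPKM in F1-Control and 89.8 in F1-HHcy and overlapping groups. No gene of the list was at 0 in all 3 libraries of either group. Of 12 oviduct secretory markers 1 passed, Ovgp1, the oviduct-specific glycoprotein, with 216, 37.5 and 365 FPKM against 0.370 to 2.10 FPKM (difference -6.13, SE 0.79, adjusted p = 0.0344, limma). The 12 markers summed to 190 to 739 FPKM in F1-Control and 53.1 to 94.5 in F1-HHcy, none of them was at 0 in all 3 libraries of either group, and 11 of 12 had no overlap. The part of such cells in the difference of the dynein genes was not tested.

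Among lists for other cells, markers of the ovarian surface epithelium also had separate sums at Pd21. They summed to 343 to 425 FPKM in F1-Control and 113 to 232 in F1-HHcy, with 0 of 8 passing limma's adjusted test, 5 at an unadjusted p under 0.05 and 0 by limma-voom, and their part in the difference of the dynein genes was not tested. Oocyte markers summed to 1258 to 1942 FPKM against 1314 to 1960, and granulosa markers to 916 to 1189 against 949 to 1409, with 0 of 9 and 0 of 7 below an unadjusted p of 0.05 (limma) and 0 by limma-voom. Theca markers (624 to 1164 FPKM against 708 to 1809) and erythroid markers (108 to 554 against 159 to 997) also overlapped, with 0 of 6 and 0 of 5 at an unadjusted p under 0.05 (limma) and 0 by limma-voom.

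**Figure D4:**
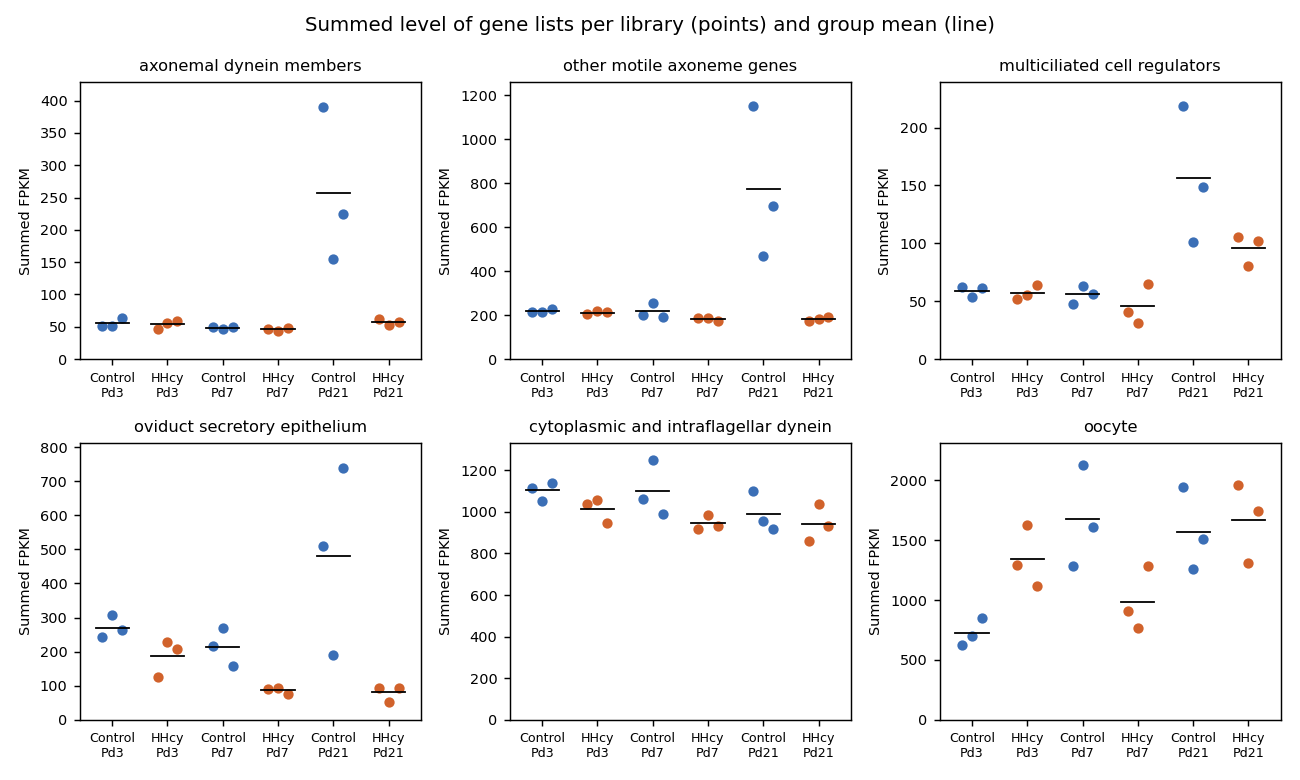
Summed FPKM of 6 gene lists in each library (points, blue F1-Control, orange F1-HHcy) and the group mean (line), each axis starting at 0. The dynein members and the other motile axoneme genes are high in the 3 F1-Control Pd21 libraries, whereas the sums of cytoplasmic dynein and of oocyte markers overlap between the diets at Pd21.

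Of 74 other genes of the motile axoneme in the files, 26 fell at Pd21 in the reported fit, against 0.59% of all genes, and 0 rose (0 higher at an unadjusted p under 0.05). Limma-voom called 4 lower and 0 higher, and with moderation over all genes together 0 passed. The difference was negative in 73 of the 74. Their summed level was 468 to 1151 FPKM in F1-Control and 174 to 191 FPKM in F1-HHcy. Cfap65 (3.95 ± 0.794 against 0.0695 ± 0.0611 FPKM, SD, n = 3) and Cfap44 (3.06 ± 0.465 against 0.0774 ± 0.0655), both cilia and flagella associated proteins, had the smallest p, with an adjusted p of 0.0139 each (limma). Tppp3, a tubulin-binding protein, had 98.0 ± 53.4 against 9.06 ± 2.25 FPKM (adjusted p = 0.0308, limma). Dpy30, the most abundant of the list and also a subunit of histone methyltransferase complexes, had 68.2 ± 6.44 against 70.4 ± 18.6 FPKM, the 1 difference that was not negative.

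The cytoplasmic and intraflagellar dynein genes did not share this pattern. Of 26 such genes, 0 passed limma's adjusted test at Pd21, 1 had an unadjusted p under 0.05 (Wdr34, 20.8 ± 3.41 against 14.8 ± 1.69 FPKM, difference -0.46), and limma-voom called 0. Their median difference was -0.064 and their summed level 918 to 1098 FPKM in F1-Control against 860 to 1037 in F1-HHcy. Dynlrb1, the paralogue of Dynlrb2 and listed here with cytoplasmic dynein, had 183 ± 32.1 against 185 ± 30.4 FPKM (difference 0.02, SE 0.20). Of 20 further genes tied to dynein arms by other names, 2 fell at Pd21, the dynein light chain gene Tctex1d4 (15.9 ± 8.96 against 0.0584 ± 0.0295 FPKM, adjusted p = 0.0194, limma) and the intermediate chain gene Wdr78 (6.67 ± 2.23 against 1.35 ± 0.400 FPKM, adjusted p = 0.0494, limma). Limma-voom called 0 of the 20, and with moderation over all genes together 0 passed. The general co-chaperone genes in that list, Hsp90aa1 and Ruvbl1, had 362 ± 138 against 295 ± 87.1 FPKM and 41.7 ± 5.64 against 34.5 ± 7.50 FPKM, with overlapping groups.

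At Pd7 the diets differed in 3 members, in both directions. By limma 1 of 34 members rose, against 1.29% of all genes, and 2 fell, against 1.14%. The signs were 16 positive and 18 negative, and 8 members had no overlap in each direction (15% and 13.6% of all genes). By the looser criterion 2 were higher and 4 lower (4.57% and 4.04%). Dnah2, an inner arm heavy chain (chromosome 11, 69420807 to 69549108), had 0.167, 0.0683 and 0.129 FPKM in F1-Control and 0.751, 0.798 and 0.706 in F1-HHcy, with no overlap and a difference of 0.64 (SE 0.093, adjusted p = 0.0284, limma). Its levels rest on 255 fragments in the 3 F1-Control libraries and 1529 in F1-HHcy. Dnaaf1 had 0.735, 0.812 and 0.795 FPKM against 0.156, 0.148 and 0.153 FPKM, and fell by 0.63 (SE 0.091, adjusted p = 0.0284, limma). Of its exonic bases 20.7% overlap the gene Taf1c on the other strand, and the strand setting of the counting is not given in the sources used here. Lrrc6 had 2.48, 3.77 and 2.88 FPKM against 1.34, 1.29 and 1.16, and fell by 0.82 (SE 0.16, adjusted p = 0.0435, limma).

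These calls at Pd7 depended on single libraries and on the test. With any 1 of 5 libraries left out (each but F1-Control replicate 3), 0 members passed in either direction, and at most 21 of all genes were higher and 5 lower. Limma-voom called Dnah2 and Dnaaf1 alone, and with limma's moderation over all genes together Dnah2 and Dnaaf1 passed but Lrrc6 did not (adjusted p = 0.0925, limma). Dnah17 had 3.67, 1.88 and 1.81 FPKM against 0.568, 0.907 and 0.547 FPKM, without overlap (difference -1.01, adjusted p = 0.0600, limma), and Dnah9 had 1.21, 1.61 and 1.13 against 0.677, 0.518 and 0.537 (difference -0.55, adjusted p = 0.0741, limma). At Pd7 the oocyte markers summed to 1289 to 2127 FPKM in F1-Control and 764 to 1289 in F1-HHcy, the theca markers to 241 to 476 against 1177 to 1220, and the erythroid markers to 925 to 5727 against 287 to 502. The oviduct secretory markers summed to 158 to 270 FPKM in F1-Control and 75.1 to 92.9 in F1-HHcy, with 3 of 12 lower by limma (Epcam, Krt7 and Krt8), and the ovarian surface epithelium markers to 423 to 693 against 188 to 391, with 1 of 8 lower. In both of these lists 0 were lower by limma-voom and 0 with moderation over all genes together. The part of these cells in the differences of the dynein genes was not tested.

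**Figure D5:**
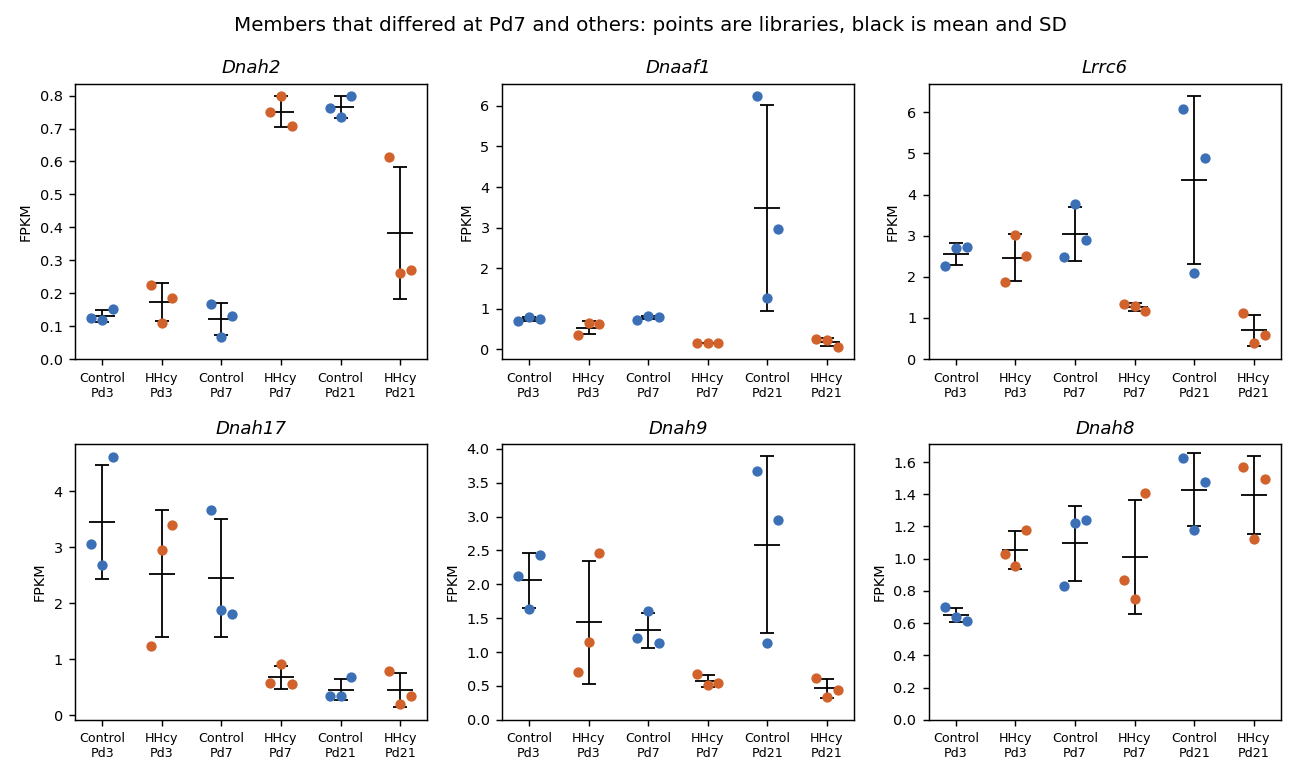
FPKM of Dnah2, Dnaaf1, Lrrc6, Dnah17, Dnah9 and Dnah8 in each library (blue F1-Control, orange F1-HHcy) with group mean and SD (n = 3) in black, on linear axes that differ between panels. At Pd7 the diets are separate in the first 5 genes, with Dnah2 higher and the other 4 lower in F1-HHcy, and they overlap in Dnah8.

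At Pd3 no member differed between the diets by limma's adjusted test (0 of 34 in either direction, against 0% of all genes higher and 0.00733% lower). At an unadjusted p under 0.05 there were 2, and limma-voom called 0. These were Zmynd10, with 0.0776, 0.174 and 0.322 FPKM in F1-Control and 0.366, 0.697 and 0.691 in F1-HHcy (difference 0.41, SE 0.13, adjusted p = 0.230, limma), and Dnah8, with 0.698, 0.638 and 0.613 against 1.03, 0.954 and 1.18 FPKM (difference 0.32, SE 0.12, adjusted p = 0.278, limma). The groups did not overlap in 3 members in the higher direction (9.37% of all genes) and in 3 in the lower (10.9%), and by the looser criterion 0 were higher or lower (2.87% and 2.45%). At this day the erythroid markers summed to 3887 to 11109 FPKM in F1-Control and 778 to 1107 FPKM in F1-HHcy, and the oviduct secretory markers to 242 to 306 against 126 to 228. The oocyte markers summed to 621 to 850 FPKM in F1-Control and 1117 to 1630 in F1-HHcy, and the granulosa markers to 263 to 281 against 302 to 508.5. The part of these cells in the values of the dynein genes was not tested.

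The diet effect itself was compared between days in 1 model of the 18 libraries. Between Pd21 and Pd7 it was more negative at Pd21 in 19 of 34 members and less so in 0 (2.05% and 0.322% of all genes, limma), and by the looser criterion in 23 and 1 (5.88% and 3%). At an unadjusted p under 0.05, 1 member lay in the other direction, Dnah17 with 0.99, and limma-voom called 0 there. The values were -5.28 for Dynlrb2 (SE 0.53, adjusted p = 3.66e-05, limma), -3.82 for Dnali1 (SE 0.36, adjusted p = 2.27e-05), -1.61 for Dnah6 (SE 0.16, adjusted p = 3.43e-05) and -1.41 for Dnah3 (SE 0.10, adjusted p = 2.6e-06). Between Pd21 and Pd3 it was more negative at Pd21 in 18 members and less so in 0 (2.51% and 0.531% of all genes), with 0 at an unadjusted p under 0.05 in that direction and 0 by limma-voom. By the looser criterion there were 21 and 0 (5.61% and 2.28%). With moderation over all genes together 18 members passed in each of these comparisons, and with any 1 library left out 18 to 22 and 15 to 19. Shares over all genes in these settings are not given here, so these counts cannot be set against a background. Both comparisons use the same Pd21 libraries, so that their lists are not independent of each other. Of the 19, all but Dynlrb2 (1.56 FPKM) and Dnal1 (3.87 FPKM) had a mean under 1 FPKM in F1-Control at Pd7. Of the 18, all but Dynlrb2 (1.01 FPKM) and Lrrc6 (2.56 FPKM) did so at Pd3. Dnah3 (mean 0.00398 FPKM) and Dnah5 (0.0333 FPKM) were the lowest of the 19 at Pd7. On this scale such members had little room to fall on those days. For these, except Dnah2, which was called higher at Pd7, the contrast cannot separate a changed diet effect from an F1-Control level that was high only at Pd21.

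Dnah2 was among the 19 that differed between Pd21 and Pd7 (-1.01, SE 0.13, adjusted p = 0.000341, limma), and its own diet differences had opposite signs, 0.64 at Pd7 and -0.36 at Pd21, of which the first passed the test. Dnal1 passed as well (-1.01, SE 0.25, adjusted p = 0.0444, limma), with 0.66 at Pd7 and -0.35 at Pd21, of which neither passed alone, and it no longer passed in most of the settings that left out 1 library. Between Pd7 and Pd3 the diet effect differed in 0 of 34 members by limma (0.0733% of all genes higher and 0.0843% lower), with 3 at an unadjusted p under 0.05, 0 by limma-voom, and 1 higher and 1 lower by the looser criterion (2.7% and 2.91%), and Dnah2 had 0.59 (SE 0.13, adjusted p = 0.0824, limma).

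Within batch 1 the days Pd7 and Pd3 were compared for each diet. In F1-Control 0 of 34 members passed limma's adjusted test (2.44% of all genes higher and 1.85% lower), 6 had an unadjusted p under 0.05, limma-voom called 0, and 0 met the looser criterion (3.89% and 3.93%). Armc4 went from 0.117, 0.129 and 0.241 FPKM at Pd3 to 0.288, 0.422 and 0.485 at Pd7 (difference 0.27, adjusted p = 0.142, limma), and Dnah14 from 0.382, 0.377 and 0.429 to 0.218, 0.172 and 0.0703 (difference -0.28, adjusted p = 0.10, limma). In F1-HHcy 0 of 34 passed (0% of all genes in either direction), 7 had an unadjusted p under 0.05, limma-voom called 0, and by the looser criterion 0 were higher and 2 lower, Dnah17 and Lrrc6 (3% and 2.92%). Dnah2 had 0.224, 0.11 and 0.186 FPKM at Pd3 and 0.751, 0.798 and 0.706 at Pd7 (difference 0.58, adjusted p = 0.188, limma).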

How the data were processed

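Ovarian poly-A RNA of 18 libraries was sequenced from stranded libraries. The authors deposited 1 FPKM value per gene symbol and library for 30172 genes. The unit is not named in the sources used here and was read from the values, since 1 scale for each library and 1 whole length for each gene gave back whole fragments (within 0.05) for 99.989% of the tested genes. The submitters' processing notes name FastQC 0.11.9, Trimmomatic 0.39, STAR 2.7.9a, featureCounts 2.0.1 and DESeq2 1.36.0 with the builds GRCm38 and mm10.

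Diets were compared per day, and Pd7 with Pd3 per diet, by linear models of log2(FPKM + 1) in limma (version 3.58.1, R 4.3.3) over the 27294 genes above 0 in at least 3 of 18 libraries. Benjamini-Hochberg adjustment ran over all of them, with a threshold of 0.05. Diet effects of 2 days were compared in 1 model of the 6 groups. Limma's moderation over all genes together, as first planned, recovered too few altered genes in simulated data. The simulation gave all genes the same spread between libraries, smaller than that of Dynlrb2 or Dnali1 among the F1-Control Pd21 libraries. It therefore does not show which fit suits those libraries. Before these comparisons were run on the real values, genes above 0 in fewer than 3 libraries of a fit were therefore left uncalled but counted in the adjustment, and robust moderation with a trend was used. The plan as written stands as an alternative, and so do a pseudocount of 0.1, a filter at 1 FPKM, median-ratio scaling, limma-voom on the recovered fragments, the replicate number as a block, all 18 libraries in 1 model, the call rule of the study's plots (log2 over 0.58) and each library left out. That call rule was applied to limma's unadjusted p and log2(FPKM + 1) differences.

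The members and lists were chosen with earlier results of these data known. Members named with full values were, per role, the 3 most abundant and the 3 with the smallest p at Pd21, those called in another comparison and those unlike their class, and from other lists the 2 most abundant and the 2 with the smallest p, of which the text gives a part. Promoters and positions were taken from RefSeq (GRCm38.p6), exon overlaps from GENCODE vM21. Other steps ran in Python 3.11.15 (pandas 2.3.3, numpy 2.4.6), and matplotlib 3.10.9 drew the figures.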

Additional observations from a re-analysis of the deposited data

Results flagged for a closer look

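The diet effect differed between days. It was more negative at Pd21 than at Pd7 in 19 of 34 members and than at Pd3 in 18 of 34 (adjusted p under 0.05, limma contrast in 1 model of 18 libraries). The shares over all genes were 2.05% and 2.51%. The 8 genes with the clearest contrast between Pd21 and Pd7, in log2(FPKM + 1), were Dnah3 (-1.41), Dnali1 (-3.82), Dnah6 (-1.61), Dynlrb2 (-5.28), Dnah5 (-2.09), Dnah2 (-1.01), Ccdc151 (-2.36) and Zmynd10 (-2.37). Each of them lay lower in every F1-HHcy than in every F1-Control library at Pd21. At Pd7 Dnah2 was higher in F1-HHcy, and the other 7 had an adjusted p of at least 0.05. Age and batch cannot be told apart where Pd21 takes part. All of the 19 but Dynlrb2 and Dnal1 had a mean under 1 FPKM in F1-Control at Pd7, Dnah3 and Dnah5 the lowest. On this scale such members had little room to fall there. For these, except Dnah2, the contrast cannot separate a changed diet effect from an F1-Control level that was high only at Pd21.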

How the results depend on the processing

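At Pd21 the number of members lower in F1-HHcy, 9 in the reported fit, was 15 with a pseudocount of 0.1 (1.51% of all genes lower, against 0.59% in the reported fit), 14 of the 27 tested with a filter at 1 FPKM (2.2%), 22 with all 18 libraries in 1 model (3.22%), 22 by the call rule of the study's plots (3.19%), 3 with limma-voom (0.246%) and 0 with moderation over all genes together, the fit as first planned (0.00366%). It ranged from 0 to 17 with each library left out. All 9 were shared with the calls of the pseudocount, the filter, median-ratio scaling and the single model. The filter asked for 1 FPKM in at least 3 of the 6 libraries of the day. Members such as Dnah3 and Dnah5 met it only through F1-Control, so its count is no separate support. Between 31 and 34 of the members tested had a negative difference with each library left out, against 33 in the reported fit. For the 26 members without overlap this sign was fixed in advance. At Pd7 1 member was higher and 2 lower in the reported fit (1.29% and 1.14% of all genes). With the filter 0 of 13 were higher and 3 lower (5.91% and 5.95%). These were Dnah17, Dnah9 and Lrrc6, of which Dnah17 and Dnah9 met the filter only through F1-Control, and Dnah2 and Dnaaf1 were not tested. The single model gave 2 higher and 1 lower (Dnah2, Dnal1 and Dnah17, 2.11% and 2.52%), with Dnaaf1 and Lrrc6 no longer passing. A pseudocount of 0.1 gave 1 higher and 3 lower, Dnah17 added (1.78% and 1.69%). The study's rule gave 2 higher and 4 lower (4.57% and 4.04%). Dnah2 higher and Dnaaf1 lower remained with median-ratio scaling (1.28% and 0.975%), limma-voom (0.183% and 0.0879%) and moderation over all genes together (0.0953% and 0.0476%). With each library left out, 0 to 1 were higher and 0 to 3 lower. For Pd7 against Pd3, the single model gave 1 lower in F1-Control (Dnah14) and 1 higher in F1-HHcy (Dnah2), where the study's rule gave 2 lower and leaving out single libraries 0 to 1. For the diet effect of Pd7 against Pd3, moderation over all genes together gave 1 higher and the study's rule 1 higher and 1 lower, and that rule gave 1 higher for Pd21 against Pd7. The causes were not tested.

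At Pd21 the sign turned in 3 members near 0. With single libraries left out, Dnah17 ranged from -0.1867 to 0.0982, Dnah8 from -0.0959 to 0.0655 and Spag1 from -0.1046 to 0.1226, and Dnah8 was 0.0142 with median-ratio scaling.

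The replicate numbers were not treated as pairs in the reported fit. Deviations of same-numbered libraries correlated between -0.281 and -0.131 at Pd21, -0.085 and 0.074 at Pd7, and -0.173 and -0.108 at Pd3. Such values do not show pairing, and with 3 libraries per group they cannot exclude it. For Pd7 against Pd3 in F1-Control they lay between 0.098 and 0.235, and each library correlated best with its own number, a hint from the data and not the design. In F1-HHcy they lay between -0.022 and 0.086. With the replicate block 2 members were lower at Pd21 (Dnali1 and Dynlrb2, against 0.3% of all genes). At Pd7 0 were higher or lower (0.714% and 0.612% of all genes). With this block 18 differed between Pd21 and Pd7 and 18 between Pd21 and Pd3, for which shares over all genes are not given here.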
